A study of Homo sapiens with 118 samples.

Results

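Neuronal genes that are known as targets of the repressor REST in cells outside the nervous system were followed in HepaRG cells exposed to inhibitors of histone deacetylases. The genes were chosen by name, and a row of the count table belonged to the set when its name without the trailing probe number was 1 of 41 gene symbols. The rule found 48 rows, called features here, of 22068 features in use, and all 41 symbols of the 19470 in the table were present. GAP43, ENO2, NEFL, SYP, SYN1, UCHL1 and SYN2 had 2 features each. Gene expression was measured by TempO-Seq, where 2 neighbouring probes that bind a transcript are ligated, amplified with a barcode and sequenced, so that a feature is a probe pair and not a whole transcript.

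HepaRG is an established human cell line from a liver tumour, used here in its differentiated state, in which it holds hepatocyte-like and biliary-like cells; the labels name the cell type as liver progenitor. The 118 libraries covered 8 chemicals at 5 rising concentrations, C1 to C5, after 72 h of exposure with daily renewal. Apicidin ran from 0.041722 to 0.86 µM, mocetinostat from 0.177222 to 3.9 µM, panobinostat from 0.001468 to 0.084 µM, scriptaid from 4.94 to 94.5 µM, tacedinaline from 1.143333 to 44 µM, trichostatin A from 0.018811 to 1.5237 µM and vorinostat from 0.404778 to 23.5 µM. The unit for valproic acid is not settled here, because its dose labels (100.478 for C1 and 3038 for C5) and the treatment protocol differ in scale. Replicates 1, 2 and 3 were batches of HepaRG cells, all of 1 line; 38 groups held 3 libraries, and C3 of panobinostat and C4 of trichostatin A held 2. Solvent controls with DMSO were not used here, so each chemical was read against its own C1, and effects that had reached their full size at C1 are missed. Concentrations of different chemicals do not match, and values of chemicals are only set side by side.

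REST binds a DNA element called RE1 near neuronal genes and recruits SIN3A on one side and RCOR1 (CoREST) on the other. Both complexes carry the deacetylases HDAC1 and HDAC2, which remove acetyl groups from histones and keep the chromatin of these genes closed in liver and other tissues. The genes followed here code for proteins that neurons and neuroendocrine cells use to store and release transmitters and hormones, to build axons and to bind neuronal mRNA.

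The RE1 element was searched for because it is the site through which REST acts. The motif was TTCAGCACC, any 2 bases and GGACAGCGC, on both strands, with up to 4 of 18 letters differing. In the RefSeq promoter windows around the start sites (GRCh38.p14), 29 of the 41 symbols had a window and 3 held a match, against 224 of 27305 symbols in all (0.82%; 231 of 35116 windows, 0.658%). The stretches below are written in the direction of the gene, with the motif and its spacer in capitals. CELSR3 (chr3:48663010-48663039, gene on the minus strand) matched with 3 differing letters, from -148 to -129 of the start. VGF (chr7:101165554-101165583, minus strand) matched on the strand opposite to the gene with 1 differing letter, from -9 to 10, across the start site. SYN1 (chrX:47620066-47620095, minus strand) matched with 1 differing letter, from -233 to -214.
CELSR3: ctctgTTCAGCACCAGGAGCAACGCtcacg
VGF: cgcggGCGCTGTCCAGCGTGCTGAAgccgg
SYN1: ccagcTTCAGCACCGCGGACAGTGCcttcg
A match is a description of letters, and no match says only that these letters were not in the window.

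The 120 bases before the start sites of 5 members that moved are shown. Counts of probe pairs do not show from which start site a transcript came. SCG2 and NEFL, which also moved, had no window and were searched neither for RE1 nor for GC boxes. Capitals mark the GC box letters GGGCGG or their complement CCGCCC, which 21 of 29 members held somewhere in their window, against 48.3% of all symbols and 45% of all windows. The regions (GRCh38.p14) are chr7:73719670-73719789 on the minus strand for STX1A, chr5:58582955-58583074 on the plus strand for RAB3C, chrX:49200194-49200313 on the minus strand for SYP, chr12:6914460-6914579 on the plus strand for ENO2 and chr15:32641590-32641709 on the plus strand for SCG5.
STX1A: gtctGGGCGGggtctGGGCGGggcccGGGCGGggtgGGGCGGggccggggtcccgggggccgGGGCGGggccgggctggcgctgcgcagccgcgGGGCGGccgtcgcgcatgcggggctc
RAB3C: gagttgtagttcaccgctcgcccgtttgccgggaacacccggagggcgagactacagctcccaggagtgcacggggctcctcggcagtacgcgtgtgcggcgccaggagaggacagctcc
SYP: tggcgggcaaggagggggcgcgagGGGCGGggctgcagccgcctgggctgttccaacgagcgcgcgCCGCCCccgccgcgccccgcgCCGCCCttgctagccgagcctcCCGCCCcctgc
ENO2: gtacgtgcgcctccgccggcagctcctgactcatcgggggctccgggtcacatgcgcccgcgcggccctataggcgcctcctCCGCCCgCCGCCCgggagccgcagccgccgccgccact
SCG5: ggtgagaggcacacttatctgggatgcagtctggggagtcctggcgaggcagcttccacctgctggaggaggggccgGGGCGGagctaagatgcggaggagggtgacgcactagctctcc
The whole window of STX1A held 7 GC boxes and that of RAB3C held 0, and both genes rose in the same 6 chemicals. The window of SCG5, which fell, held 1.

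Libraries held from 1061359 to 5250260 counts (median 3702007). Levels are given as CPM, the count scaled to a common library size with TMM factors, which adjust for differences in RNA composition, and intervals and floors from counts cover counting error only. Hepatocyte markers such as ALB were abundant, while the neuron markers DCX, GAD1, NEUROD1, RBFOX3 and SLC17A7 had a median of 0 counts over the libraries. MAP2, also a neuron marker, had medians of 868.5 and 428.5 counts with its 2 features. At C5, 10 to 12 of 12 hepatocyte marker features fell in 7 chemicals, beside 6.22% to 24.9% of all features tested there. Their medians in these chemicals were -4.39 to -1.34 on the log2 scale, and the median was 0.02 in trichostatin A. Over the 8 chemicals and all features, 11.6% of the tests by edgeR rose and 13.4% fell. Beside this, markers of biliary or progenitor cells had 11 rising calls in 33 tests. SOX9 and SPP1 rose in 5 chemicals each, KRT19_3690 in 1 and KRT19_10816 in 0 of 8. KRT7_10561 was tested in 1 chemical and not called, and EPCAM was not tested. Mesenchymal markers had 7 rising and 17 falling in 54, and the neuron markers 2 rising and 1 falling in 20. The part of these marker results in the member results was not tested. In lysates of whole wells, fewer cells of a type and less RNA per cell cannot be told apart. Libraries stood apart in 2 ways. The library labelled trichostatin A C1 replicate 3 had 25143 ALB counts, against 110081 and 100269 in the other two, and 10 libraries held at least 10 counts of the glial genes GFAP and MBP in sum; detected shares and calls that changed without them are given below.

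Of the 48 member features, 18 passed the filter on low counts in at least 1 chemical, 30 passed in none, and 24 symbols had no feature that passed. At C5 against C1, 10 symbols, with 11 features, rose in at least 1 chemical, where 30.8% of all features tested in at least 1 did so, and 1, SCG5, fell, where 30.6% did; over the 8 chemicals there were 35 rising and 5 falling calls, and 0 members were called in opposite directions. Calls needed an adjusted p under 0.05 in edgeR's quasi-likelihood test together with a fold change of at least 1.5. Mocetinostat had 9 rising members of 15 tested, beside 14.8% of all features tested there, and 1 falling, beside 15.7%. Tacedinaline had 7 rising of 10 (18.7% of all features) and 1 falling (20.1%). Scriptaid had 7 rising of 12 (12.8%) and 0 falling (17%; 0 at an unadjusted p under 0.05 and 0 by DESeq2). Vorinostat had 5 rising of 7 (22.7%) and 1 falling (24.9%). Apicidin had 4 rising of 10 (13.8%) and 0 falling (15%; 1 at an unadjusted p under 0.05 and 0 by DESeq2). Panobinostat had 2 rising of 9 (6.77%) and 1 falling (9.46%), and valproic acid 1 rising of 8 (4.84%) and 1 falling (6.22%). In trichostatin A 0 of 8 members rose (0%) and 0 fell (0.0154%) by edgeR, 0 in either direction had an unadjusted p under 0.05, and DESeq2 called 0. Several members passed the filter only through the libraries in which they were high, so the shares of tested members are given as counts and not as support for a direction.

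**Figure D1:**
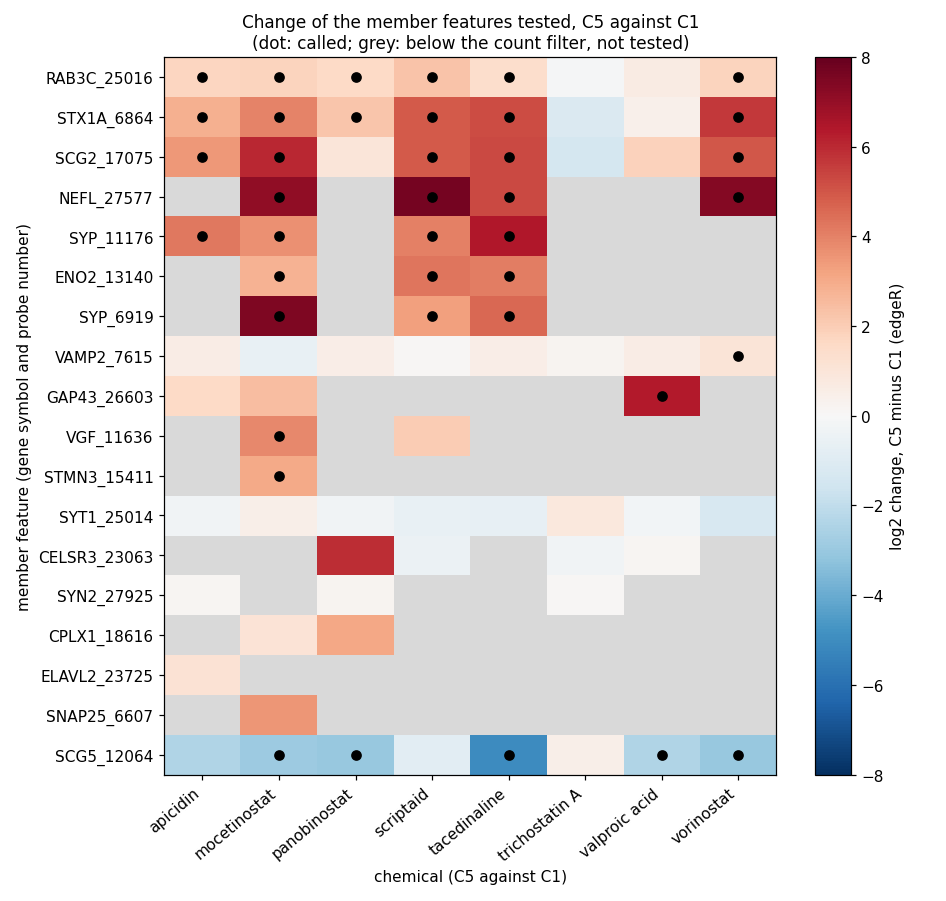
Fitted log2 change from C1 to C5 (edgeR, colour scale) of the 18 member features that were tested in at least 1 chemical, by chemical, with a dot where the feature was called and grey where it did not pass the filter on low counts. STX1A and RAB3C carry dots in 6 chemicals, SCG5 is the row with falling calls, and the trichostatin A column has none.

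Of the 10 genes of vesicle fusion, the machinery that brings a secretory vesicle to the plasma membrane and merges the membranes, 6 features were tested and 3 rose in at least 1 chemical, beside 30.8% of all features tested in at least 1. STX1A, syntaxin 1A, is the SNARE protein of the plasma membrane in synapses. STX1A rose in 6 chemicals, most in vorinostat, where the counts were 3, 6 and 2 at C1 and 65, 165 and 86 at C5. The groups did not overlap, and the level went from 1.31 ± 0.582 to 67.2 ± 16.6 CPM (SD, n = 3 each). That is a log2 change of 5.68 with an SE of 0.508 (edgeR adjusted p = 3.42e-11). Its log2 change was 5.19 in tacedinaline, 4.88 in scriptaid, 3.99 in mocetinostat, 2.84 in apicidin and 2.23 in panobinostat. Panobinostat was the weakest of these (edgeR adjusted p = 0.0345), with counts of 6, 8 and 10 at C1 and 32, 40 and 38 at C5. That call was lost without any 1 of the batches (log2 change 2.04 to 2.60, edgeR adjusted p 0.0884 to 0.19), and also without the panobinostat libraries that held glial counts (2.13, edgeR adjusted p = 0.12). In valproic acid STX1A was at 4.19 ± 2.77 CPM at C1 and 5.48 ± 1.33 at C5, a log2 change of 0.40 (edgeR adjusted p = 0.758). In trichostatin A the counts were 3, 5 and 44 at C1 and 13, 8 and 3 at C5; the high C1 value belonged to the library that stood apart. The log2 change was -1.18 with that library (edgeR adjusted p = 0.728) and 1.02 without it (edgeR adjusted p = 0.717), and it was -1.57 without the libraries with glial counts (edgeR adjusted p = 0.654), none of them past the threshold.

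RAB3C, a small GTPase of secretory vesicles, had at least 5 counts in all 118 libraries and so was not silent at C1. RAB3C rose in the same 6 chemicals. In scriptaid the counts were 32, 43 and 24 at C1 and 99, 156 and 86 at C5, and its level went from 9.31 ± 1.89 to 45.6 ± 1.47 CPM. The log2 change of 2.29 (SE 0.378, edgeR adjusted p = 0.000181) was the largest of the 6, and the smallest was 1.41, in tacedinaline. The spread between batches at C5 was small, with 34.9 to 43.4 CPM in panobinostat and 50.7 to 56 CPM in mocetinostat. The panobinostat call was lost without replicate 3 (log2 change 1.43, edgeR adjusted p = 0.0592). RAB3C was at 24.2 ± 1.53 CPM at C1 of valproic acid and at 37.7 ± 6.93 at C5 (log2 change 0.64, edgeR adjusted p = 0.117), and its groups did not overlap there either. In trichostatin A it was at 9.92 ± 3.87 and 9.28 ± 1.85 CPM (log2 change -0.10, edgeR adjusted p = 0.963), with log2 changes of -0.37 without the C1 library that stood apart and -0.05 without the libraries with glial counts.

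VAMP2, synaptobrevin, the SNARE protein of the vesicle, also had at least 5 counts in all 118 libraries. VAMP2 was called in vorinostat, where the counts of 37, 150 and 107 at C1 correspond to 21.2, 38.9 and 34.4 CPM and those of 72, 114 and 106 at C5 to 65.6, 59.7 and 69.1 CPM. The log2 change was 1.01 (SE 0.241, edgeR adjusted p = 0.000721). VAMP2 had a log2 change of -0.59 in mocetinostat (edgeR adjusted p = 0.0936), with 38.8 to 50.9 CPM at C1 and 25.5 to 33.6 at C5. DESeq2 called VAMP2 falling in mocetinostat (log2 change -0.65, DESeq2 adjusted p = 0.0437). In apicidin the log2 change of 0.58 had an edgeR adjusted p of 0.0238 but was below the fold threshold. SYT1, the calcium sensor synaptotagmin 1, was tested in all 8 chemicals and called in none, with log2 changes between -1.28 in vorinostat and 0.82 in trichostatin A. SNAP25, the third SNARE protein, passed the filter in mocetinostat alone, where it was called at C4, with 11, 13 and 3 counts (edgeR adjusted p = 0.0459), and not at C5 (edgeR adjusted p = 0.102). The complexin CPLX1 was tested in mocetinostat and panobinostat and called in neither. CPLX2, SYT4, SYT5 and RAB3A passed the filter in no chemical, and their highest counts in any library were 5, 3, 10 and 23.

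**Figure D2:**
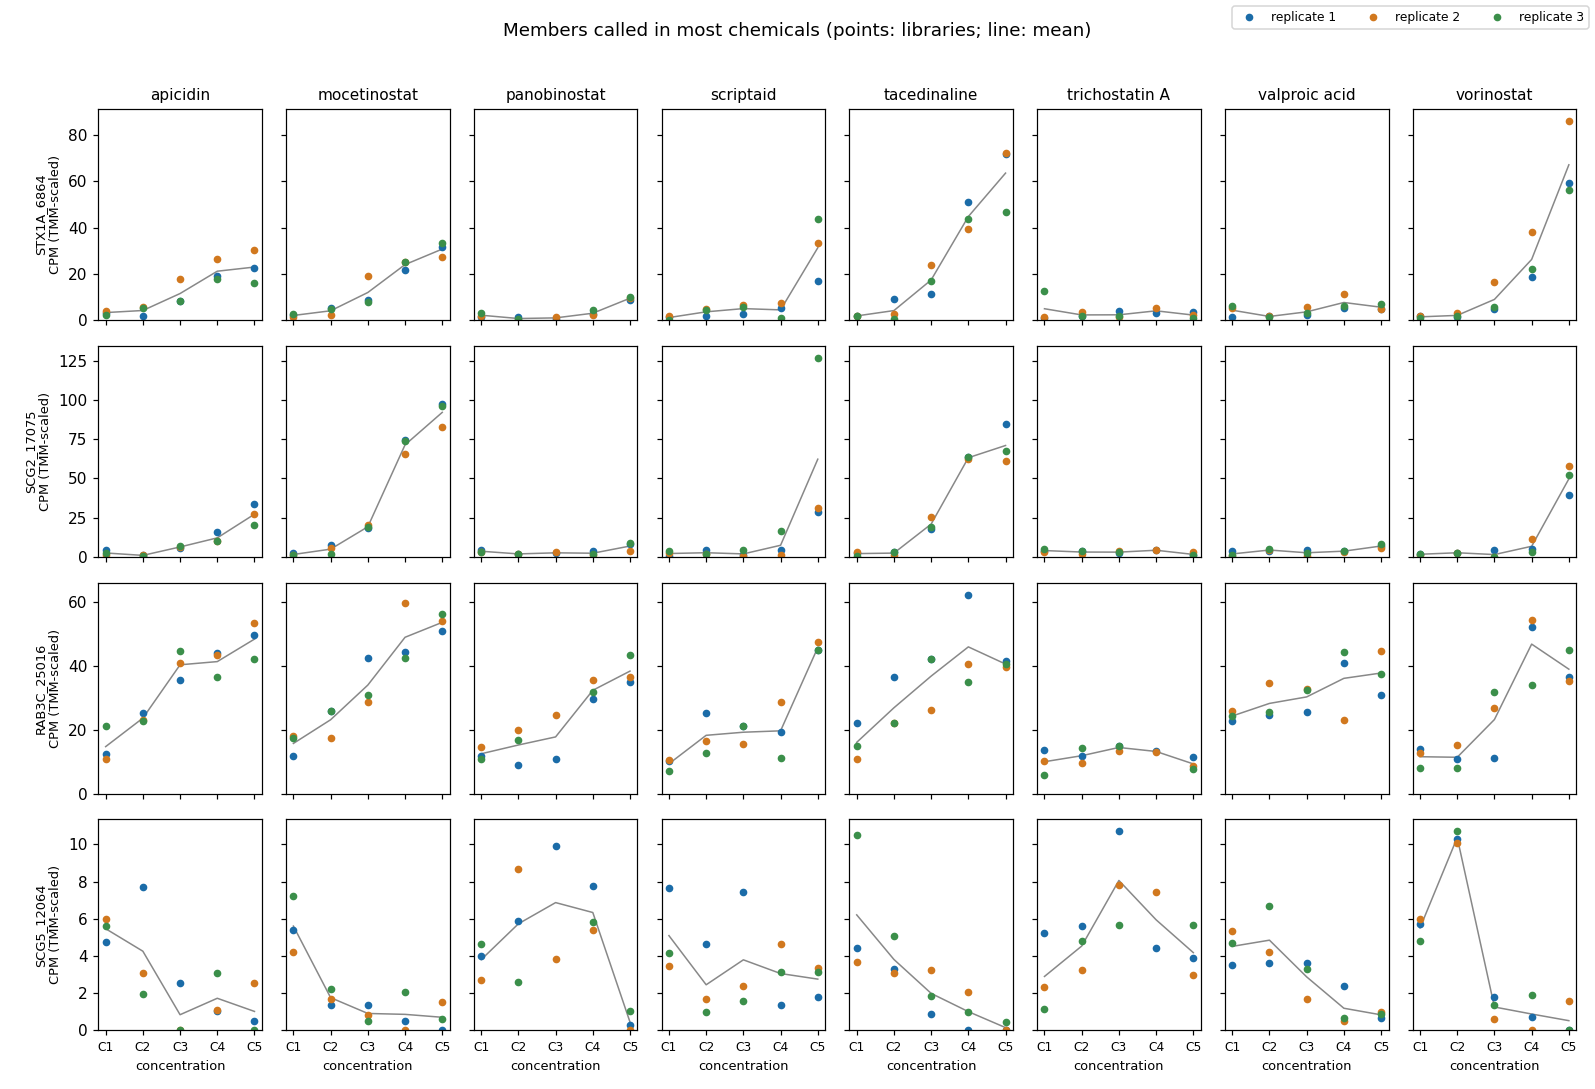
Level in CPM of STX1A_6864, SCG2_17075, RAB3C_25016 and SCG5_12064 in every library (points, coloured by HepaRG batch) at C1 to C5, with a column per chemical and a grey line through the group means. STX1A, SCG2 and RAB3C are high at C5 in vorinostat, tacedinaline, mocetinostat and scriptaid and low at C5 of trichostatin A. At C1 of trichostatin A STX1A is higher in replicate 3, the library that stood apart, than in replicates 1 and 2. SCG5 is lower at C5 than at C1 in tacedinaline and vorinostat.

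Of the 4 genes of the vesicle membrane and its coat, SYP, SYN1, SYN2 and NSG2, 3 of 7 features were tested and the 2 SYP features rose in at least 1 chemical, beside 30.8% of all features tested. SYP, synaptophysin, is an abundant protein of synaptic vesicles and a marker of neuroendocrine cells. SYP_6919 passed the filter on low counts in 3 chemicals and SYP_11176 in 4, and neither was tested in the others. Where they were low at C1 they could pass only through libraries in which they were high. The count beside 30.8% is therefore a description and not support for a rise. SYP_6919 was at 0 counts in all 3 libraries at C1 of mocetinostat and at 10, 23 and 28 counts at C5. Against 3 counts per library, the floor used for a group at 0, SYP_6919 was at least 7.88-fold higher at C5 (edgeR adjusted p = 0.000658). It was also called in tacedinaline, from 2 counts in sum at C1 to 47 at C5, a ratio of 29 (95% exact counting interval 7.6 to 247), and in scriptaid. The scriptaid call was lost without replicate 1 (log2 change 2.61) or replicate 2 (5.21). SYP_11176, the other probe pair, was at 0 counts at C1 of tacedinaline and at 10, 0 and 15 counts at C5, so 1 library of C5 was at 0 as well. SYP_11176 was at least 2.8-fold higher there (edgeR adjusted p = 0.00218), and it was called in mocetinostat, scriptaid and apicidin too. The apicidin call of SYP_11176 rested on 23 counts at C5 against 1 at C1, and the log2 change of 4.19 (edgeR adjusted p = 0.0385) went to 3.91 (edgeR adjusted p = 0.112) without the library that held glial counts. SYP_11176 also lost its scriptaid call without replicate 2 (log2 change 3.80) or replicate 3 (2.63), and its tacedinaline call without replicate 3 (5.68). In apicidin it was below the filter without replicate 1 and lost the call without replicate 2 (3.53) or replicate 3 (4.19). In vorinostat both probe pairs were below the filter, yet their counts were 1, 0 and 0 (SYP_6919) and 0, 0 and 0 (SYP_11176) at C1 and 14, 8 and 10 and 16, 2 and 12 at C5. SYN2_27925, synapsin 2, was tested in 3 chemicals, with log2 changes of 0.10 to 0.19, and called in none. SYN1, synapsin 1, whose promoter window held an RE1 match, did not pass the filter with either feature, and its highest count was 19.

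Of the 8 genes for granins and prohormone processing, the cargo of dense-core vesicles and the enzymes that cut it, 3 features were tested. SCG2, secretogranin 2, rose in 5 chemicals. In mocetinostat the counts were 10, 4 and 4 at C1 and 383, 327 and 324 at C5. The level went from 1.43 ± 0.885 to 92.1 ± 8.2 CPM (SD, n = 3 each), and the log2 change of 6.00 (SE 0.465, edgeR adjusted p = 1.11e-07) came with no overlap between the groups. Log2 changes of SCG2 were 5.31 in tacedinaline, 4.99 in vorinostat, 4.88 in scriptaid and 3.47 in apicidin. The 3 scriptaid libraries at C5 were far apart, at 28.5, 31.2 and 127 CPM, and each was above the highest C1 library at 3.57 CPM. In panobinostat SCG2 was at 3.49 ± 0.637 CPM at C1 and at 6.81 ± 2.69 at C5 (log2 change 0.95, edgeR adjusted p = 0.319). In valproic acid the counts were 18, 2 and 4 at C1 and 32, 23 and 27 at C5, a log2 change of 1.86 (edgeR adjusted p = 0.0765). With the batch as a block this became 2.05 (edgeR adjusted p = 0.049), so that valproic acid had 2 rising members, and it was also called by DESeq2 (1.88, DESeq2 adjusted p = 0.0297). In trichostatin A SCG2 was at 18, 10 and 18 counts at C1 and at 3, 11 and 3 at C5 (log2 change -1.38, edgeR adjusted p = 0.535; -1.17 and 0.57 without the C1 library that stood apart, and -2.37 and 0.43 without the libraries with glial counts).

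SCG5 codes for 7B2, a chaperone of the prohormone convertase PCSK2. SCG5 was the only member called falling, in 5 chemicals. In tacedinaline the counts were 5, 12 and 41 at C1 and 0, 0 and 1 at C5, with levels of 6.19 ± 3.7 and 0.15 ± 0.26 CPM and no overlap between the groups. The ratio of C1 to C5 was 47 from 58 counts against 1 (95% exact counting interval 8.1 to 1886; edgeR adjusted p = 0.000949). In vorinostat the ratio was 8.35 from 48 counts against 3 (95% interval 2.69 to 41.9; edgeR adjusted p = 0.0106). The log2 change of SCG5 was -3.03 in panobinostat (edgeR adjusted p = 0.0128), -2.93 in mocetinostat (edgeR adjusted p = 0.0424) and -2.39 in valproic acid (edgeR adjusted p = 0.0324). Its log2 change was -2.38 in apicidin (edgeR adjusted p = 0.102), -0.86 in scriptaid and 0.48 in trichostatin A. The falls rested on few counts. Without 1 batch at a time, mocetinostat (log2 change -4.34 to -2.44) and valproic acid (-2.39 each time) lost the call every time, panobinostat lost it without replicate 1 (-2.76), vorinostat lost it without replicate 1 (-2.64) and replicate 3 (-2.56), and tacedinaline was below the filter without replicate 2 or replicate 3. With the batch as a block the mocetinostat call was lost too (log2 change -2.93, edgeR adjusted p = 0.0629).

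VGF, a neurotrophin-induced secretory peptide precursor, was called in mocetinostat. Its counts there were 2, 2 and 0 at C1 and 44, 4 and 7 at C5, so 1 library carried most of the change (log2 change 3.82, SE 1.17, edgeR adjusted p = 0.0201). Without replicate 1, which holds that library, the log2 change was 2.58 (edgeR adjusted p = 0.237), and without replicate 2 or 3 the call was lost as well (4.59 and 3.66). VGF was also tested in scriptaid (log2 change 2.03, edgeR adjusted p = 0.157). The classical granins CHGA and CHGB, with SCG3, the convertase PCSK1 and its inhibitor PCSK1N, passed the filter in no chemical. The highest count of PCSK1 and of PCSK1N in any library was 1, and those of CHGA, CHGB and SCG3 were 7, 5 and 16.

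Of the 10 genes of the neuronal cytoskeleton and the growth cone, 3 of 12 features were tested, NEFL_27577 in 4 chemicals, GAP43_26603 in 3 and STMN3 in 1, and all 3 rose in at least 1, beside 30.8% of all features tested. This count is a description, since a feature that is low at C1 could pass the filter on low counts only where it was high. NEFL, the light chain of neurofilaments, was at 0 counts in all 3 libraries at C1 of scriptaid and at 8, 16 and 34 counts at C5, at least 10.1-fold higher (NEFL_27577; edgeR adjusted p = 0.00265). In vorinostat NEFL_27577 went from 0 in all 3 libraries to 6, 13 and 22 counts, at least 7.68-fold higher (edgeR adjusted p = 9.59e-05). Without replicate 2 it was no longer called in vorinostat. In mocetinostat it went from 2, 0 and 0 counts to 72, 114 and 101, a ratio of 164 (95% exact counting interval 44.9 to 1359), and in tacedinaline from 0, 0 and 5 to 38, 96 and 34 (log2 change 5.28, edgeR adjusted p = 1.38e-06). C1 and C5 libraries of NEFL_27577 did not overlap in any of these 4 chemicals. These are the only chemicals in which it passed the filter, so this too is a description and not support for a rise. The second NEFL probe pair, NEFL_4536, had a count in 5 of 118 libraries and no more than 11, so the probes of the gene did not give the same picture.

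GAP43, a protein of growing axon tips, was called at C5 in valproic acid, with 0, 0 and 0 counts at C1 and 16, 1 and 13 at C5 (GAP43_26603; at least 3.27-fold, edgeR adjusted p = 0.0118). It lost that call without replicate 1 (log2 change 5.89) or replicate 3 (5.99). In apicidin GAP43_26603 was called at C3 and C4 but not at C5, with 25, 6 and 11 counts at C3, 9, 13 and 11 at C4 and 2, 4 and 3 at C5. Neither call was made without the libraries with glial counts, of which 1 was at C3 and 2 were at C4 of apicidin. In mocetinostat it had 22, 24 and 30 counts at C4 and 2, 0 and 9 at C5. The second GAP43 probe pair, GAP43_2585, had no more than 13 counts. STMN3, a stathmin that binds tubulin, was called in mocetinostat, where the counts were 1, 1 and 4 at C1 and 2, 29 and 15 at C5. The STMN3 groups overlapped (log2 change 3.02, SE 0.999, edgeR adjusted p = 0.0298), and the call was lost without any 1 batch (1.93 to 3.93). NEFM, NEFH, INA, STMN2, STMN4, DPYSL4 and DPYSL5 passed the filter in no chemical, with highest counts between 3 and 17.

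**Figure D3:**
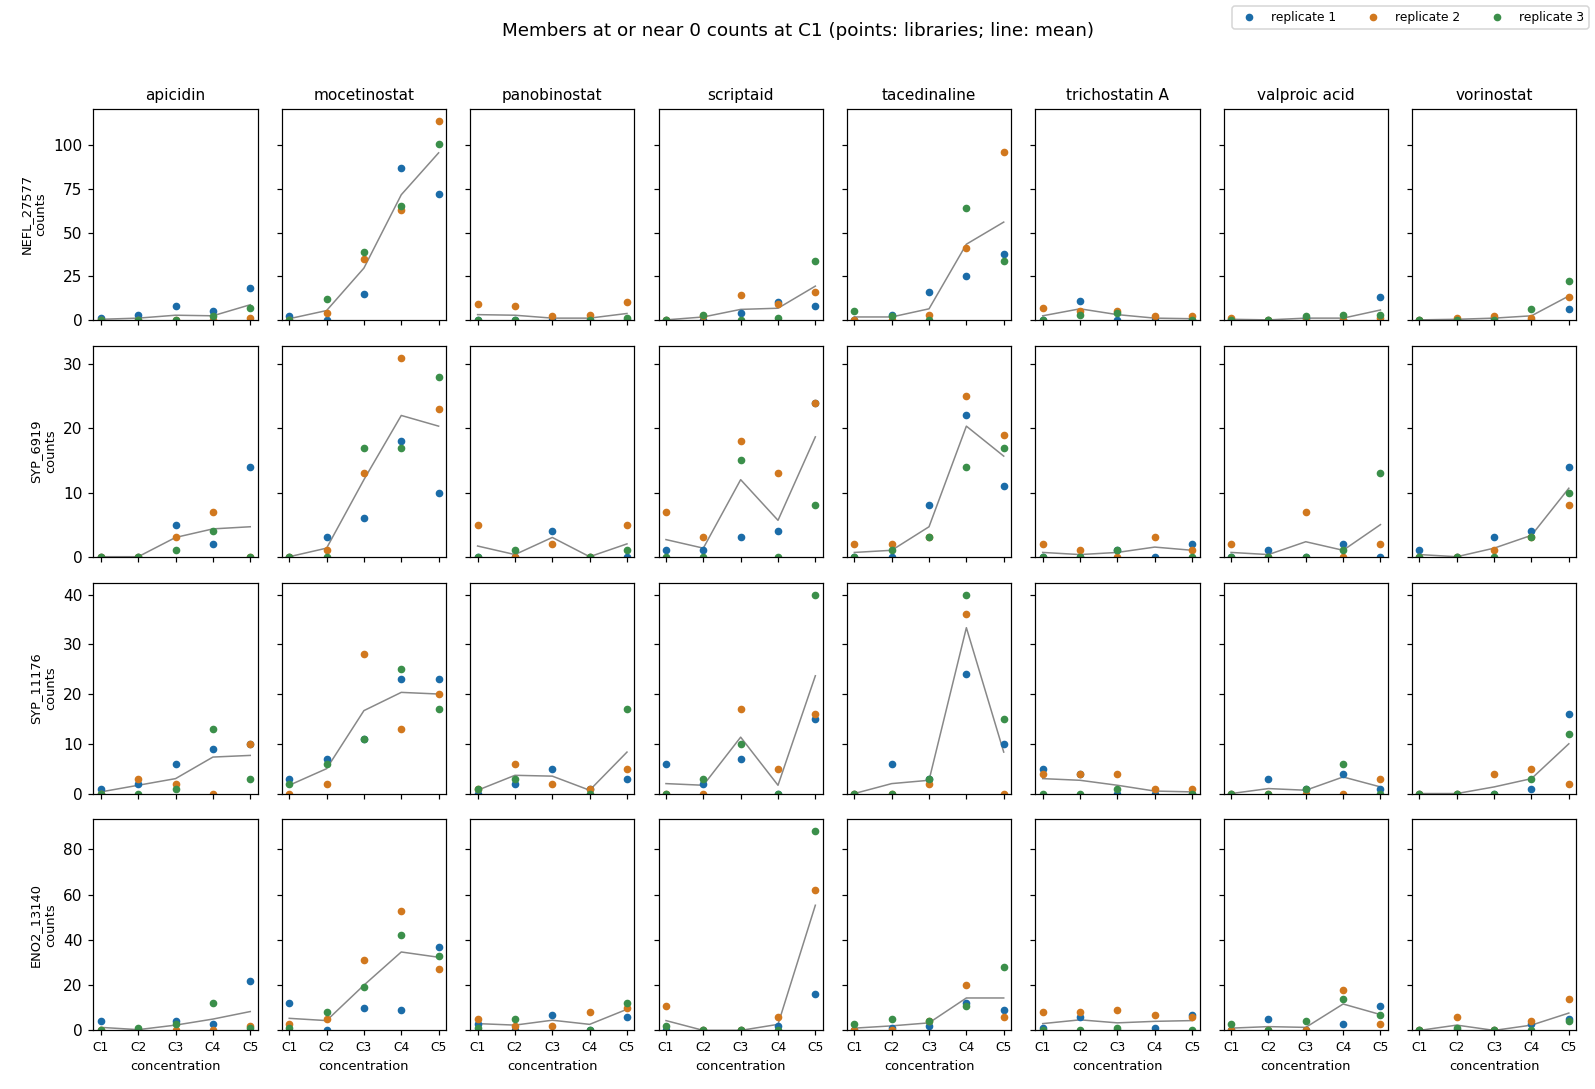
Raw counts of NEFL_27577, SYP_6919, SYP_11176 and ENO2_13140 in every library (points, coloured by HepaRG batch) at C1 to C5, with a column per chemical. In mocetinostat NEFL_27577 goes from 2, 0 and 0 counts at C1 to 72, 114 and 101 at C5.

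ENO2 is the neuronal form of the glycolytic enzyme enolase. Its probe pair ENO2_13140 passed the filter on low counts in 3 chemicals, was called rising in these 3 and was not tested in the others. Where it was low at C1 it could pass only through libraries in which it was high. The 3 calls are therefore a description and not support for a rise. In scriptaid ENO2_13140 had 0, 11 and 2 counts at C1 and 16, 62 and 88 at C5, going from 1.1 ± 1.42 to 23.9 ± 19.8 CPM (log2 change 4.31, SE 1.03, edgeR adjusted p = 0.00573). In tacedinaline the ratio was 17.7 from 43 counts against 3 (95% exact counting interval 5.67 to 89.2). In mocetinostat the log2 change was 2.75 (edgeR adjusted p = 0.0284), and it was 2.66 with the batch as a block (edgeR adjusted p = 0.0502), 2.56 without replicate 2 and 2.18 without replicate 3, none of them past the threshold. The second ENO2 probe pair, ENO2_2153, was below the filter everywhere, but in scriptaid it was at 0 in all C1 libraries and at least 6.15-fold higher at C5. CELSR3, a cadherin of axon guidance whose promoter window held an RE1 match, was tested in 4 chemicals and called in none (log2 change -0.47 to 0.17 in 3 of them, and an edgeR adjusted p of 0.0619 in panobinostat). Of the ELAVL family of neuronal RNA-binding proteins, ELAVL2 passed the filter in apicidin alone (log2 change 1.13, edgeR adjusted p = 0.485), and ELAVL3 and ELAVL4 had no more than 2 and 4 counts. CADM3, RUNDC3A, BEX1 and UCHL1 passed in no chemical.

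Over the chemicals and levels, 43 pairs of a member feature and a chemical were called at C3, C4 or C5. Of these, 13 were first called at C3, 16 at C4 and 14 at C5, so the first calls came at C3. In mocetinostat 6 members rose at C3 (1.595 µM; 6.44% of all features) and 9 at C4 (2.5 µM; 12.1%). In apicidin 3 rose at C3 (0.3755 µM; 6.94%) and 5 at C4 (0.5 µM; 11.1%). In tacedinaline 3 rose at C3 (10.29 µM; 5.44%) and 7 at C4 (30.87 µM; 16.3%), where 1 fell (16.4%). In vorinostat STX1A alone rose at C3 (3.643 µM; 3.18%), and at C4 (10.929 µM) 4 rose (15.6%) and 1 fell (16.7%). Panobinostat had RAB3C at C4 (0.03963 µM; 1.16%) and valproic acid GAP43 at C4 (5.51%). In scriptaid all 7 members were first called at C5 (94.5 µM). At C4 (60 µM) 3 members had an unadjusted p under 0.05 upwards in edgeR, and none passed after adjustment. STX1A was first called at C3 in 4 chemicals, with counts in tacedinaline of 22, 9 and 1 at C2, 26, 44 and 27 at C3 and 119, 154 and 135 at C4. Without the libraries with glial counts, apicidin had 2 rising members at C3, where SCG5 fell, and 3 at C4, and mocetinostat had 7 at C4. The calls lost were GAP43_26603 at C3 and C4 and SYP_11176 at C4 of apicidin, ENO2_13140 and SNAP25 at C4 of mocetinostat and RAB3C at C4 of panobinostat.

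Mocetinostat and tacedinaline are benzamides, apicidin is a cyclic tetrapeptide, valproic acid is a short branched carboxylic acid, and panobinostat, scriptaid, trichostatin A and vorinostat are hydroxamic acids. Since their concentrations do not match, the C5 changes are given side by side without a comparison. For SCG2 the log2 changes were 6.00 and 5.31 in the benzamides and 0.95, 4.88, -1.38 and 4.99 in the hydroxamic acids in the order named. For STX1A they were 3.99 and 5.19 in the benzamides and 2.23, 4.88, -1.18 and 5.68 in the hydroxamic acids.

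The share of the 48 member features detected, meaning at least 5 counts in a library, was a description with no test. In mocetinostat it went from 18.8 ± 7.22% at C1 to 35.4 ± 3.61% at C5 (SD, n = 3), with 7 to 13 members detected per library at C1 and 15 to 18 at C5. In scriptaid it went from 19.4 ± 5.24% to 29.2 ± 2.08%, and in tacedinaline from 16 ± 6.7% to 28.5 ± 6.36%, each with no overlap between the libraries of C1 and C5. In vorinostat it went from 13.9 ± 4.81% to 19.4 ± 2.41%, in apicidin from 15.3 ± 2.41% to 22.9 ± 7.22% (18.8% at C5 without the library with glial counts) and in valproic acid from 18.8 ± 2.08% to 23.6 ± 6.01%. The share was 22.2 ± 11.5% and 23.6 ± 6.36% in panobinostat and 19.4 ± 2.41% and 20.1 ± 7.32% in trichostatin A. One library at C1 of panobinostat held glial counts and had 17 members detected, against 8 and 7 in the others, and without it the share there was 15.6%. Without the libraries with glial counts the share in trichostatin A was 18.8% at C1 and 16.7% at C5. Over all features the share lay between 50.1% and 59.7% at C1 and C5. With every library thinned to 1061359 counts, the members' share went from 6.94% to 22.9% in mocetinostat, from 9.03% to 18.7% in scriptaid, from 8.33% to 17.4% in tacedinaline and from 9.72% to 17.4% in vorinostat, and it was 9.72% at both ends in valproic acid. Of the 34 members under 5 counts in all C1 libraries of mocetinostat, 3 (both SYP probe pairs and NEFL_27577) had at least 5 in every C5 library, against 2.54% of all such features. The number was 2 of 33 in scriptaid (ENO2_2153 and NEFL_27577; 1.48% of all such features), 2 of 36 in tacedinaline (SYP_6919 and ENO2_13140; 1.85%) and 2 of 37 in vorinostat (SYP_6919 and NEFL_27577; 1.14%). It was 0 of 38 in apicidin (1.62%), 0 of 28 in panobinostat (1.36%), 0 of 31 in trichostatin A (0.42%) and 0 of 36 in valproic acid, where the share over all such features lay between those of trichostatin A and apicidin. These counts are a description with no test. At the other end, 7 member features stayed under 5 counts in all 118 libraries, and the highest count among the 30 that were never tested was 24, for SYN2_16110. That count was reached in the C1 library of trichostatin A that stood apart, while replicates 1 and 2 there had 1 and 2 counts.

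**Figure D4:**
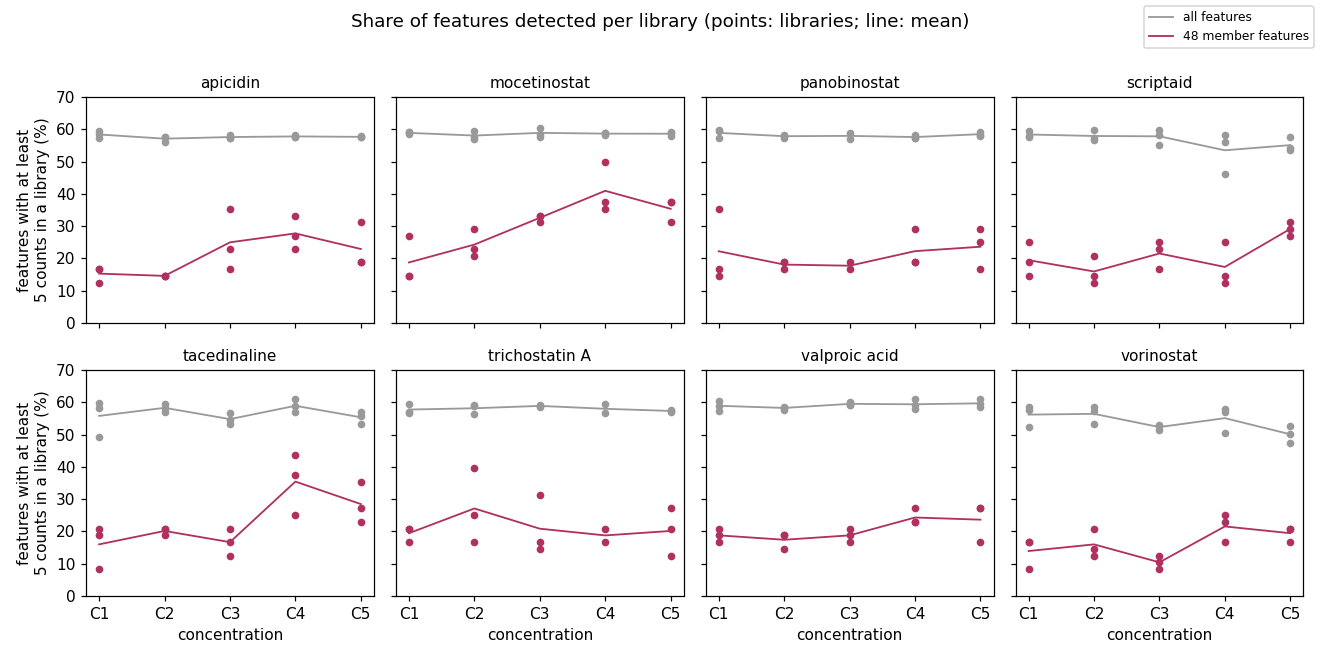
Percent of member features and of all features with at least 5 counts in each library (points, with a line through the means), by concentration level, with a panel per chemical. The members rise from 7 to 13 detected features at C1 to 15 to 18 at C5 in mocetinostat, while the share over all features is level.

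Counts of GFAP and MBP, called glial counts here, moved with the detection of some members on 1 of the plates. The sum left out S100B and AIF1, the other genes of the list of glia markers. These reached 17 and 21 counts, against 14 for GFAP and 2 for MBP. At C1 of mocetinostat, replicates 2 and 3 had 0 glial counts, yet at least 1.63 CPM of the list. Trichostatin A C1 replicate 1 had at least 4.54 CPM of the list, with 1 glial count and 19 member features with a count. The whole list was not tested against detection. All 10 libraries with at least 10 glial counts were on plate H, which held 73 libraries, and the highest value was 15; on plate E, with 45 libraries, it was 3. These 10 had a count in 30 to 35 member features (median 32), against 11 to 26 (median 15) in the 43 libraries of plate H with 0 glial counts. Libraries of plate H with 1 to 9 glial counts are in neither group and were kept in every alternative without glial libraries. They reached from 17 member features with a count, as in apicidin C5 replicate 3, to 36 in valproic acid C4 replicate 3. So those alternatives did not remove every library with many member features. CHGB had a count in 9 of the 10 libraries and in 2 of the 43, NEFM in 10 and 4, SCG3 in 10 and 6, SNAP25 in 10 and 3, and UCHL1_23226 in 10 and 4. Mean counts in the 10 and the 43 libraries, which are not matched by chemical or level, were 40.5 and 28.6 for STX1A, 57.8 and 38.2 for SCG2 and 122 and 104 for RAB3C. Of the 10 libraries, 1 was at C5 of apicidin, 1 at C1 of panobinostat, 1 at C1 and 1 at C5 of trichostatin A, and 0 at C1 or C5 of mocetinostat or valproic acid. Without them RAB3C was called in 6 chemicals, STX1A and SCG2 in 5 each and NEFL_27577 in 4, and VAMP2 was called also in apicidin (log2 change 0.62). Per the labels, Human Brain Total RNA was among the positive assay controls; its part in these counts was not tested.

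**Figure D5:**
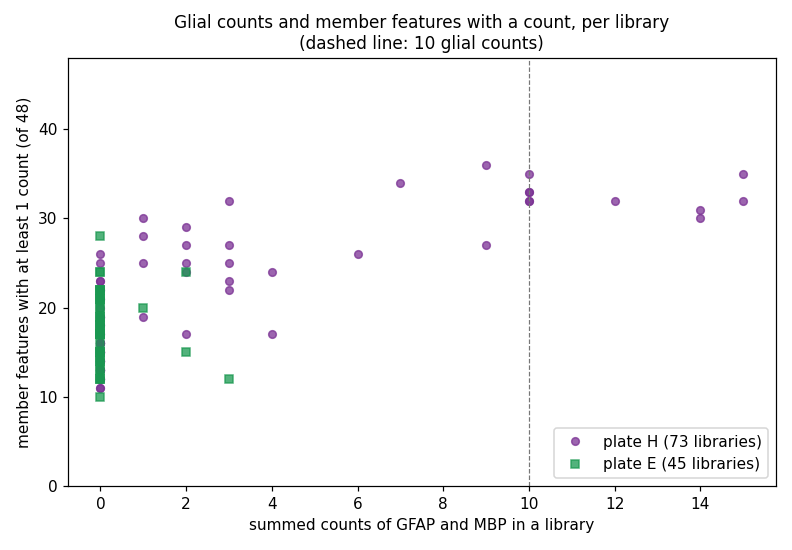
Number of member features with at least 1 count in a library against the summed counts of the glial genes GFAP and MBP in that library, for 73 libraries of plate H and 45 of plate E, with a dashed line at 10 glial counts. The 10 libraries at or to the right of the line are all of plate H and have 30 to 35 member features with a count.

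REST itself was measured by 1 feature and was called in none of the 8 chemicals by edgeR. Its level at C1 was lowest in mocetinostat, at 15.2, 11 and 5.98 CPM, and highest in valproic acid, at 17.5, 19.5 and 25.6 CPM. At C5 it was at 14.2, 6.28 and 11.1 CPM in apicidin, 11.2, 6.57 and 8 in mocetinostat, 12.8, 18.5 and 20 in panobinostat, and 9.5, 11.5 and 13.5 in scriptaid. In the others it was at 22.3, 14.3 and 11.7 CPM (tacedinaline), 13.9, 7.94 and 13.5 (trichostatin A), 10, 18.8 and 16.4 (valproic acid) and 16.4, 15.2 and 15 (vorinostat). The libraries of C1 and C5 overlapped in 7 chemicals and not in vorinostat, where C1 was at 12.6, 13.2 and 9.32 CPM. Its log2 change at C5 lay between -0.76 in scriptaid and 0.43 in panobinostat.

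Of the 26 genes of the list of REST, its corepressors and its regulators, 32 features were in the table. Over the 8 chemicals 191 tests at C5 gave 11 rising and 27 falling calls, where 11.6% of all tests rose and 13.4% fell. Vorinostat had 3 rising and 9 falling of 23 tested, where 22.7% of all features rose and 24.9% fell. Tacedinaline had 4 and 6 of 24, where 18.7% and 20.1% did. Their medians were -0.53 and -0.31 on the log2 scale, against -0.00 and 0.03 over all features. CTDSP1 and CTDSPL, small phosphatases that act on REST and on RNA polymerase II, fell in 5 chemicals each (CTDSPL_91460), and CTDSP1 had a log2 change of -2.23 in mocetinostat, from 94.6 ± 25.5 to 20.2 ± 4.89 CPM (edgeR adjusted p = 2.25e-05). HDAC2, the deacetylase of both corepressor complexes, rose in 4 chemicals, by up to 1.15 on the log2 scale in vorinostat (288 ± 13 to 641 ± 114 CPM; edgeR adjusted p = 1.22e-08). RCOR1 rose in 1 chemical, and SIN3A rose in 4.

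Neuronal genes outside the set were also mostly below the filter, and a few rose. They were listed as neuronal genes that are no members, and were not sorted by whether REST acts on them. Of 28 symbols with 41 features, 31 of 92 tests at C5 were called rising and 2 falling, where 11.6% and 13.4% of all tests over the 8 chemicals were. NCAM1, a cell adhesion molecule, BDNF, a neurotrophin (BDNF_25560), and MAPT, tau (MAPT_11555), rose in 7 chemicals each. The second MAPT probe pair, MAPT_4019, rose in 3 of 8, and BDNF_679 passed the filter in none. NCAM1 rose most in apicidin, from 33.3 ± 2.62 to 182 ± 35.5 CPM (log2 change 2.44, edgeR adjusted p = 4.34e-09), and it was at 45.1 ± 1.87 and 60.1 ± 18.8 CPM in trichostatin A (edgeR adjusted p = 0.634). Of 15 neurogenic transcription factors with 17 features, ISL1 and POU3F2 passed the filter. ISL1, a LIM homeodomain factor of motor neurons and endocrine pancreas, rose in 7 chemicals with probe pair ISL1_11752, most in vorinostat, from 9.56 ± 2.82 to 84 ± 13.2 CPM (log2 change 3.08, edgeR adjusted p = 1.87e-10). Broadly expressed relatives of the members, 17 symbols with 19 features, had 33 rising and 15 falling calls in 133 tests, beside the same 11.6% and 13.4%. UCHL3, the relative of UCHL1, rose in 7 chemicals and ELAVL1 in 5, while VAMP8, a SNARE protein of endosomes, fell in 5, with a log2 change of -1.96 in tacedinaline (edgeR adjusted p = 6.33e-17).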

How the data were processed

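TempO-Seq was run on lysates of HepaRG cells. The deposited values are whole-number counts of reads for each probe pair, which the authors had not normalised; per the labels, the submitters' processing notes name bcl2fastq 2.20.422, fastp 0.23.2, STAR 2.7.10b and DESeq2 1.38.0. Of 22069 rows, 1 was left out, since 88 libraries lacked a value. Each chemical was fitted alone in R 4.3.3 with edgeR 4.0.16 (filterByExpr, TMM, quasi-likelihood F test of C2 to C5 against C1), with Benjamini-Hochberg adjustment over all features tested. DESeq2 1.42.0 was an alternative. Replicate numbers mark HepaRG batches in the labels, so they pair the samples; as a check, the residuals of C1 and C5 libraries correlated with a median of 0.0168 within a batch (24 pairs) and -0.0107 across batches (48 pairs). P-values measure the spread between these batches. Members, lists and tests were chosen with earlier results of these data known. Values per library are given for the 10 member features called in most chemicals, in the chemical with the largest called change, for members that fell, and for up to 3 genes of each other list. Members named outside this rule, such as VAMP2 and GAP43, were chosen after their values were seen. A group with 0 counts was set to 3 counts per library for a bound. No probe sequences were used here.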

Additional observations from a re-analysis of the deposited data

Results flagged for a closer look

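For SCG2 and VAMP2, 12 pairs of chemicals had opposite directions between C1 and C5. In each pair the scaled level moved one way in every batch of 1 chemical and the opposite way in the other. A move of any size was taken as a direction. With each chemical fitted alone, edgeR did not call SCG2 in trichostatin A, panobinostat or valproic acid. It called VAMP2 in vorinostat only. A joint model of all 118 libraries gave the test of each difference (edgeR quasi-likelihood test, Benjamini-Hochberg adjustment over 15632 features), and 10 pairs passed. The pairs were picked for opposite moves in these same libraries, and the adjustment does not cover that choice. Passing is therefore not independent support for opposite directions. For SCG2 the difference of the log2 changes was 4.84 for apicidin minus trichostatin A (edgeR adjusted p = 9.64e-06), 7.29 for mocetinostat minus trichostatin A, 6.18 for scriptaid minus trichostatin A and 6.60 for tacedinaline minus trichostatin A. It was -3.20 for trichostatin A minus valproic acid (edgeR adjusted p = 0.0247) and -6.28 for trichostatin A minus vorinostat. Without the C1 library of trichostatin A that stood apart, the pair with valproic acid was at -2.99 and no longer passed (edgeR adjusted p = 0.114), and the other 5 lay between 4.65 and 7.11 in size and passed. Without the libraries with glial counts all 6 passed, with sizes of 4.20 to 8.28; both alternatives were chosen after seeing the data. The VAMP2 pairs that passed also passed in both. For VAMP2 it was 1.24 for apicidin minus mocetinostat (edgeR adjusted p = 0.00318), -1.23 for mocetinostat minus panobinostat, -1.23 for mocetinostat minus valproic acid and -1.58 for mocetinostat minus vorinostat (edgeR adjusted p = 0.000165). Scriptaid, tacedinaline and vorinostat were on plate E and the others on plate H, so in pairs across plates the chemical and the plate cannot be told apart. Concentrations do not match between chemicals.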

How the results depend on the processing

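With RLE scaling all 17 counts of calls stayed within 1.5 times the reported ones. With no filter on low counts the falling members were 1 in apicidin, 0 in mocetinostat and 0 in valproic acid (edgeR), and 8 rose in vorinostat. With the HepaRG batch as a block, 0 fell in mocetinostat and 2 rose in valproic acid, and the other 15 of 17 counts stayed within 1.5 times. DESeq2 called 2 falling in mocetinostat, 2 rising in valproic acid and 1 member, VAMP2, in opposite directions. Without the libraries with glial counts, an alternative chosen after seeing the data, 1 rose in panobinostat. The removal of the trichostatin A library that stood apart, also chosen after seeing the data, changed neither count of calls in that chemical. Leaving out 1 batch at a time gave 0 to 0 falling members in mocetinostat, 0 to 1 rising and 0 to 1 falling in panobinostat, 0 to 1 falling in tacedinaline, 0 to 1 rising and 0 to 0 falling in valproic acid and 0 to 1 falling in vorinostat.

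The detected share of members depended on the count minimum and on depth. At 10 counts it was 11.1% and 16% at C1 and C5 of apicidin, 11.1% and 24.3% in mocetinostat, 11.8% and 16% in panobinostat, 11.8% and 19.4% in scriptaid, 9.72% and 18.1% in tacedinaline, 12.5% and 13.2% in trichostatin A, 12.5% and 14.6% in valproic acid and 9.03% and 13.9% in vorinostat. Thinned to 1061359 counts it was 8.33% and 11.1% at C1 and C5 of apicidin, 6.94% and 22.9% in mocetinostat, 6.25% and 10.4% in panobinostat, 9.03% and 18.7% in scriptaid, 8.33% and 17.4% in tacedinaline, 9.72% and 8.33% in trichostatin A and 9.72% and 9.72% in valproic acid. Members with few counts could not be tested at this depth, and 3 batches per group limit the precision of the others.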
